A study of Mus musculus with 2 samples.

Results

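Col4a1 and Col4a2 are neighbouring genes on mouse chromosome 8 that are transcribed away from each other from a shared start region. Their 5-hydroxymethylcytosine (5hmC) peaks are described here in mouse embryonic fibroblasts (MEFs) at passage 0 and at passage 5. The members are all peaks of the 2 deposited lists that share a base with bases 11198000 to 11450000 of chromosome 8 in build mm9. These are 55 of 60157 peaks at passage 0 and 14 of 6726 at passage 5, or 69 of 66883 in both lists. The pair was chosen by its position, with the peak numbers and the overlap of both lists at this locus already known, so its density and its retained peaks are given as a description, with no test.

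Both groups are C57BL/6 fibroblasts from embryos at 13.5 days after mating, grown in medium with fetal calf serum, and the labels name no genotype change or agent. One group was harvested at passage 0 and the other at passage 5. There was 1 library per passage, and the labels do not say how many embryos were combined or what sex they were. Fragments carrying 5hmC were glucosylated, biotinylated and captured from sonicated DNA (the GLIB method), so a peak marks an enriched stretch of DNA and not a single modified base. Peak lists hold no expression values, and fibroblast marker genes could not be used to check the cell type. Read depth is unknown, and there is no replicate error for any value.

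Type IV collagen is the sheet-forming collagen of basement membranes, the thin matrix layers beneath epithelia and endothelia and around muscle and fat cells. Col4a1 and Col4a2 encode the chains of its most widespread trimer, which fibroblasts also secrete, and both genes are driven by one bidirectional promoter. 5hmC is made from 5-methylcytosine by the TET enzymes. It is generally found in the bodies of transcribed genes and at enhancers, and it is low at active promoters rich in CpG, the dinucleotide at which most mammalian DNA methylation sits.

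The shared start is shown because neither list has a peak there, while both gene bodies carry peaks. RefSeq's promoter table (build GRCm38.p6) gives a 300-base window for each gene, from 250 bases before its start to 50 after it. The Col4a1 window, chr8:11312777-11313076 on the minus strand of GRCm38.p6, also contains the annotated start of Col4a2, since the transcripts overlap by 22 bases in that table. These positions are those of GRCm38.p6, while the peaks are in mm9, and no peak was placed by them. The sequence is written 5′ to 3′ in the direction of Col4a1, with each CpG in capitals.
Col4a1 promoter window: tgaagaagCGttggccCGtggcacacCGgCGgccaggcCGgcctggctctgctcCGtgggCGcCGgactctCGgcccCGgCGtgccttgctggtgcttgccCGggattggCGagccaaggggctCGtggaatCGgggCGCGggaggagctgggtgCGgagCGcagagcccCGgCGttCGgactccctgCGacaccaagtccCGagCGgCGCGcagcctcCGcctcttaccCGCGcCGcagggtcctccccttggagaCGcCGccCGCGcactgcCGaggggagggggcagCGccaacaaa
It holds 37 CpGs, and the window of Col4a2 holds 33. The median over 32851 promoter windows of the same table is 7. As many as 37 CpGs occur in 5.58% of those windows, and as many as 33 in 8.56%. G and C make up 74.0% of the bases in the Col4a1 window and 73.7% in that of Col4a2. The motif counted, CG, reads the same on both strands.

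In mm9 the genes meet at about base 11312800. Col4a1 runs from there down to about 11198400 (114 kb) and Col4a2 up to about 11449300 (137 kb). These rounded borders, stated as mm9, define the genes here. They differ by at most 89 bases from the numbers in RefSeq's GRCm38.p6 gene table. Whether the builds coincide at this locus was not checked, since no mm9 annotation was used, and every count per gene and every distance from the start depends on it. For the same reason peaks were not assigned to exons, introns or untranslated regions.

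No peak of either list lay on the shared start. At passage 0 the peak-free stretch around it ran from base 11301159 to 11314359, which is 13.2 kb. Most positions of the pair lie outside peaks, which covered 26.2% of it at passage 0 and 3.08% at passage 5. Longer empty stretches lay elsewhere in both genes, up to 21.7 kb in Col4a1 and 26.7 kb in Col4a2. Whether the start is depleted of peaks was not tested. The stretch at the start was lopsided. On the Col4a1 side 11.6 kb were free of peaks, up to a peak at bases 11300137 to 11301158 with a score of 310. On the Col4a2 side only 1.56 kb were free, up to a peak at 11314360 to 11315962 with a score of 288. Both of these nearest peaks were strong for their list, where 91.5% and 89.8% of passage 0 peaks had a lower score. Scores come from the authors' peak lists and are used only to rank peaks within 1 list. Neither peak had a passage 5 counterpart, and at passage 5 the free stretch reached 38.7 kb into Col4a1 and 15.3 kb into Col4a2.

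**Figure D1:**
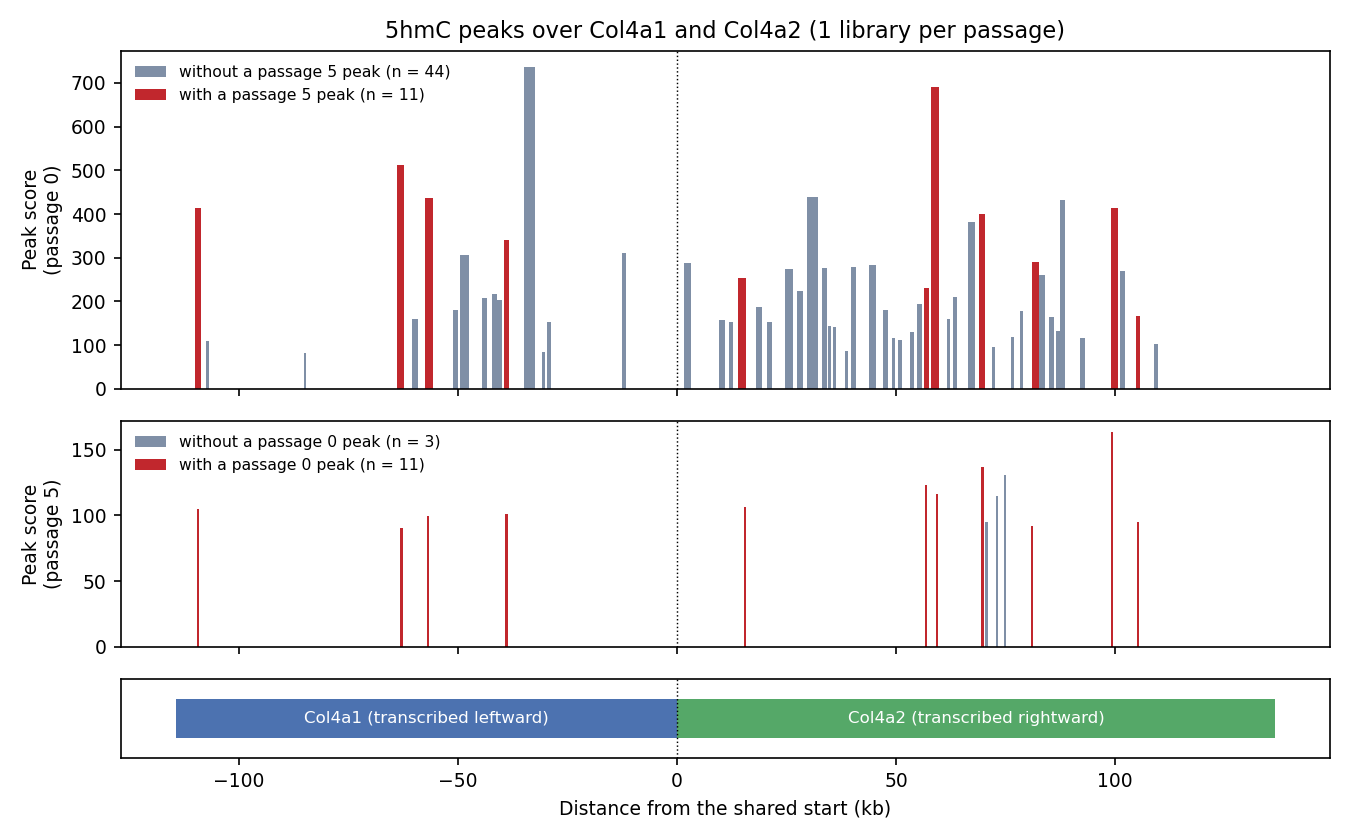
5hmC peaks over Col4a1 and Col4a2. The x axis is the distance from the shared start in kb, bars are peaks drawn to their width, and the y axes are the authors' scores at passage 0 (upper panel) and passage 5 (lower panel), which are not comparable between panels. Red bars have a peak in the other list (11 at passage 0, 11 at passage 5), and grey-blue bars have none (44 and 3). No bar lies on the start, and the outer 26.7 kb of Col4a2 are empty.

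Col4a2 carried more 5hmC peaks per length than Col4a1 at passage 0, and more of it was covered by them. Col4a2 held 39 peaks, or 2.86 per 10 kb (95% exact Poisson interval 2.03 to 3.91), and Col4a1 held 16, or 1.4 per 10 kb (0.799 to 2.27). The ratio per length was 2.04, with a counting interval of 1.12 to 3.92. Peaks covered 33.8% of Col4a2 and 17.4% of Col4a1, that is 46154 and 19919 bases. Col4a2 makes up 54.4% of the length of both genes and held 70.9% of their passage 0 peaks. These intervals cover counting error only and treat peaks as independent, which neighbouring peaks are not. When peaks within 1 kb of each other were merged, the ratio was 1.47 with an interval of 0.689 to 3.27, because Col4a2 peaks lie closer together. The covered share after merging, which includes the filled gaps, was 41.7% in Col4a2 and 18.7% in Col4a1.

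Both genes were dense in 5hmC beside the autosomes as a whole, which carried 0.251 passage 0 peaks per 10 kb and were covered to 2.37%. Col4a1 had 5.58 times and Col4a2 11.4 times the autosomal density. The median gap between neighbouring peaks was 1756 bases in Col4a1 and 1032 bases in Col4a2, against 8.62 kb on the autosomes. In Col4a2, 36 of 38 gaps were no longer than 5 kb and the longest was 6.48 kb. In Col4a1, 12 of 15 gaps were no longer than 5 kb and the longest was 21.7 kb. Col4a2 was thus evenly filled between its first and last peak, while Col4a1 had 1 dense part and wide empty parts.

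The dense part of Col4a2 was a run of 34 passage 0 peaks with gaps of at most 5 kb. It went from base 11322439 to 11405983, a span of 83.5 kb, and peaks covered 47.8% of it. Among the 37179 runs of the whole list, single peaks included, it ranked second by number of peaks, and the longest had 38. Beyond it, a shorter run of 4 peaks ended at base 11422634. The remaining 26.7 kb of Col4a2, at the 3′ end of the gene, held no peak in either list.

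In Col4a1 the dense part was a run of 12 peaks from base 11248799 to 11283961. It spanned 35.2 kb, and peaks covered 46.6% of it, close to the value of the longer Col4a2 run. Its rank among all runs was 66, shared by the 23 runs of 12 peaks. Outside this run Col4a1 held only 4 peaks. One lay between the run and the shared start, at 12.2 kb from the start. The others, 3 in number, lay toward the 3′ end, at 85.0, 107 and 109 kb from the start. The outer 2 of these formed a run of their own, spanning 3.12 kb. Empty stretches of 21.7 and 20.7 kb lay on either side of the peak at 85.0 kb, and another of 16.2 kb lay between the run and the peak nearest the start.

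Set out by distance from the start, the 2 genes had the same densest 20 kb bin but different profiles. Between 40 and 60 kb from the start Col4a1 held 7 passage 0 peaks (3.5 per 10 kb) and Col4a2 held 9 (4.5 per 10 kb). In Col4a1 the first 20 kb held 1 peak and the bins from 60 to 80 kb and from 80 to 100 kb held 1 each. In Col4a2 the first 20 kb held 5 peaks and the same 2 later bins held 7 each. In the next bin, from 100 kb outward, Col4a1 held 2 peaks in 14.4 kb (1.39 per 10 kb) and Col4a2 held 3 in 20 kb (1.5 per 10 kb). The densities of the genes were therefore similar in the middle, and Col4a2 was denser in the other full bins that both genes have. From 100 kb outward the bins differ in length, so their densities are not a like comparison. Between 100 and 110 kb Col4a1 held 2 peaks and Col4a2 held 3.

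**Figure D2:**
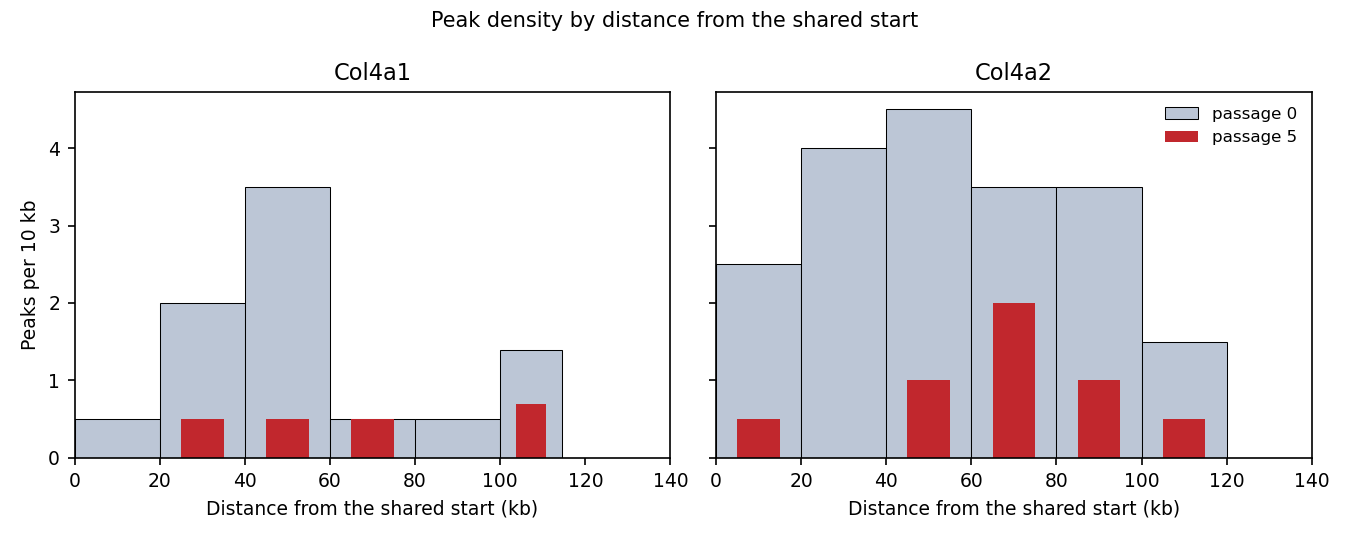
Peak density by distance from the shared start. The x axis is the distance in kb in bins of 20 kb (the last bin of each gene is shorter) and the y axis is peaks per 10 kb, counted by midpoint, with wide grey bars for passage 0 and narrow red bars for passage 5. Col4a1 has a peak of 3.5 per 10 kb at 40 to 60 kb, while Col4a2 stays at 2.5 or more up to 100 kb and is empty beyond 120 kb.

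The passage 0 peaks of the pair were stronger and wider than the list as a whole. Their median score was 204 (quartiles 148 and 289) against 129 in the list (97.2 and 192), and their median width was 1112 bp against 850 bp. Of the 55 peaks, 45 (81.8%) reached the list's median score and 14 (25.5%) were in its upper 10%. The genes overlapped widely in score, with a median of 212 in Col4a1 (quartiles 158 and 359) and 186 in Col4a2 (142 and 278), and their median widths were 1180 and 1100 bp. The upper 10% took a larger part of Col4a1, with 7 of 16 peaks, than of Col4a2, with 7 of 39. Col4a1 thus had fewer peaks, a larger part of them in the upper 10%. This held for that class only. The tenth of the list just below it held 1 peak of Col4a1 and 10 of Col4a2. The list's median score was reached by 13 of 16 peaks in Col4a1 and 32 of 39 in Col4a2, which are similar shares.

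The strongest peak of Col4a1 was also the widest of the pair. It lay at bases 11277801 to 11280451, 33.7 kb from the start, with a width of 2651 bp and a score of 736, which exceeds 99.5% of the list. The next in Col4a1 lay at 11248799 to 11250485 (score 511) and 11255286 to 11256953 (436), at 63.2 and 56.7 kb from the start. In Col4a2 the strongest peak lay at 11370755 to 11372623, 58.9 kb from the start, with a score of 690. It was followed by the widest one of that gene, at 11342546 to 11344972 (2427 bp, score 438), and by the peak at 11400276 to 11401387 (431). None of these 6 peaks was close to the start. The weakest members had scores of 82.1 in Col4a1 and 87.2 in Col4a2, near the lowest score of the list, 80.

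At passage 5 the pair held 14 peaks, 4 in Col4a1 and 10 in Col4a2. The passage 0 number was 3.93 times the passage 5 number in the pair, 4.0 times in Col4a1 and 3.9 times in Col4a2, against 8.94 times in the whole lists. The peaks of the pair covered 66073 bases in the first list and 7750 in the second, which is 8.53 times as much at passage 0, against 14.6 times in the whole lists. Per length, Col4a2 had 2.10 times the passage 5 peaks of Col4a1, with a counting interval of 0.604 to 9.15. Col4a2 held 71.4% of the pair's peaks at passage 5 and 70.9% at passage 0, so the split between the genes was nearly the same in both lists. The lower peak number at passage 5 and an unknown difference in depth between the libraries cannot be told apart.

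Of the 55 passage 0 peaks, 11 were retained, meaning that they had 1 or more bases in common with a peak at passage 5. This is 20% (95% exact Clopper-Pearson interval 10.4% to 33.0%), where 7.63% of all passage 0 peaks had a passage 5 peak. These 2 shares are not matched for score, since 25.5% of the pair's peaks were in the upper 10% of the list. In Col4a1 the retained share was 4 of 16, or 25% (7.27% to 52.4%), and in Col4a2 7 of 39, or 17.9% (7.54% to 33.5%). The difference between the genes was 7.05 percentage points, with a Newcombe interval of -13.8 to 33.1. The data therefore do not show which gene retained more of its peaks, and with only the upper 50% of each list by score the order was reversed, at 0% in Col4a1 and 9.38% in Col4a2. By bases, 10.9% of the passage 0 footprint of Col4a1 and 7.83% of that of Col4a2 was also covered at passage 5, against 4.73% over the whole list.

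The retained sites were mostly the strong ones. In Col4a1 the 4 retained peaks had scores of 340 to 511 and the 12 others had a median of 192. In Col4a2 the 7 retained peaks had scores of 167 to 690, with a median of 290, and the 32 others had a median of 172. Of the 14 peaks of the pair in the upper 10% of the list, 8 were retained, where 24.4% of all peaks in that class were. Of the 22 members in the lower 70% of the list by score 1 was retained, and of the 19 in the 20% above that 2 were, where the shares over the whole list were 4.09% and 11.6%. Below the upper 10% the pair was thus close to the list, and its higher retained share lay in the 14 peaks of that class. Retained peaks were also wider, with a median of 1527 bp against 1075 bp. The whole list went the same way, with 1003 bp against 839 bp. A wider peak has more bases on which to meet another, and the part of width in retention was not tested.

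Strength alone did not mark out the retained peaks. The strongest Col4a1 peak, with a score of 736, had no passage 5 peak on it, and the nearest lay 3.66 kb away. In Col4a2 the 2 next to the strongest, with scores of 438 and 431, also had none, and their nearest passage 5 peaks were 14.0 and 6.17 kb away. Conversely, the Col4a2 peak at bases 11417560 to 11418479 was retained with a score of 167. Over the 44 peaks of the pair without a counterpart, the median distance to a passage 5 peak was 5.0 kb, 3 lay within 1 kb and 11 lay more than 10 kb away.

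**Figure D3:**
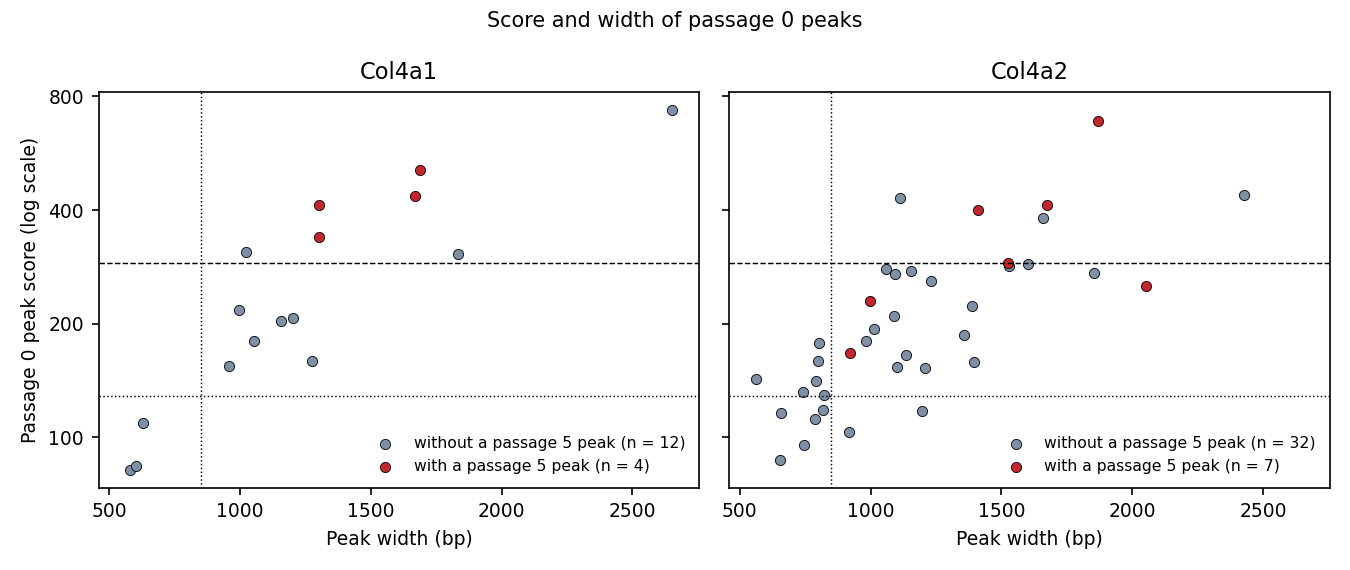
Score and width of each passage 0 peak in Col4a1 (left) and Col4a2 (right). The x axis is peak width in bp and the y axis is the authors' score on a log scale. Red points have a passage 5 peak and grey-blue points have none, dotted lines are the medians of the whole passage 0 list (129 and 850 bp), and the dashed line is the lower limit of its upper 10%. The 4 red points of Col4a1 lie above the dashed line, and the highest point of that gene is not red.

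All 4 passage 5 peaks of Col4a1 lay wholly inside a passage 0 peak. At bases 11203165 to 11203713 a peak with a passage 5 score of 105 lay in the passage 0 peak at 11202737 to 11204038 (score 414), near the 3′ end of the gene. The peak at 11249572 to 11250142 (90.2) lay in the second strongest passage 0 peak of the gene, and that at 11255597 to 11256056 (99.2) in the peak ranked next. The last of the 4, at 11273553 to 11274143 (101), lay in the peak at 11273208 to 11274509 (340). Of the 4, 3 fall in the run of 12 peaks. Scores from different lists are not comparable, and each is given only for its place in its own list.

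In Col4a2, 7 of the 10 passage 5 peaks met a passage 0 peak, 5 of them lying wholly inside it. The one nearest the start lay 15.5 kb from it, at bases 11328055 to 11328587 (score 106). A pair of peaks followed near the middle of the gene, at 11369442 to 11369933 (123) and, within the strongest passage 0 peak, at 11371832 to 11372397 (116). The widest passage 5 peak, at 11382187 to 11382976 (790 bp, score 137), lay in a passage 0 peak with a score of 399. The peak at 11417795 to 11418299 (95.3) was also wholly inside. The other two overlapped an edge. The peak at 11411793 to 11412433, the highest of the pair at passage 5 with 164, had 89.7% of its width in a passage 0 peak, and that at 11393562 to 11394110 (91.9) had 27.5%.

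The remaining 3 passage 5 peaks had no passage 0 peak, and they were neighbours in Col4a2. They lay at bases 11383181 to 11383689 (score 95.0), 11385557 to 11385993 (115) and 11387347 to 11387903 (131), between 70.6 and 74.8 kb from the start. The nearest passage 0 peaks were 116, 98 and 1128 bases away. Of the pair's 14 passage 5 peaks, 78.6% met a passage 0 peak (exact interval 49.2% to 95.3%), where 69.9% of all passage 5 peaks did. At a distance of up to 500 bases the share was 92.9%. The bin from 60 to 80 kb of Col4a2 therefore held the most passage 5 peaks of any bin in the pair, 4, with 1 of its 7 passage 0 peaks retained.

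Passage 5 peaks were narrower over the whole lists, with a median width of 563 bp against 850 bp at passage 0. Those of the pair had a median of 549 bp, and they were narrower than the passage 0 peaks they met in all 11 cases. Their widths were 26.0% to 55.9% of the partner's, with a median of 38.2%. Their midpoints lay 10.5 to 887 bases from the partner's midpoint, with a median of 223. Within their own list these peaks ranked low as a set. Their median score was 105 against 117 in the passage 5 list, 4 of 14 reached the list's median and 0 of 14 its upper 10%. All 4 that reached the median lay in Col4a2. The passage 5 median score was 100 in Col4a1, on 4 peaks, and 116 in Col4a2, close to that of the list. So both genes stood high in score within the passage 0 list, and within the passage 5 list mainly Col4a1 stood low.

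The number of passage 5 peaks was nevertheless high for the length of the pair. The autosomes were cut into 9504 windows of the same length, 252 kb, which held a median of 3 passage 0 peaks and 0 passage 5 peaks. With 55 passage 0 peaks the pair would rank seventh among them, the best place of a tie, since 8 windows held at least as many. With 14 passage 5 peaks it would rank second. The one window above it at passage 5, with 45 peaks, began at base 3024013 of chromosome 11 and held 18 passage 0 peaks. The windows were laid on a fixed grid, while the pair is framed by its genes, which favours the pair. An alternative added after the scores were seen took only the upper 50% of each list by score. There the pair had 4 passage 5 peaks and ranked 37, the best place of a tie, since 94 windows held at least as many. The high rank therefore rests on low-scoring peaks.

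The pair was also set beside the windows most dense at passage 0. The 77 windows with at least 40 passage 0 peaks had 0 to 13 passage 5 peaks, with a median of 4. Their share of retained passage 0 peaks was 0% to 25%, with a median of 6.78%, and 1 of the 77 reached the 20% of the pair. With scores of at least 100 the pair's share was 13.7%, and 1 of 18 such windows reached it. With the upper 50% of each list it was 6.67% (3 of 45), inside the range of the 4 such windows, 2.38% to 11.9%, so the pair did not stand apart in that setting. Per length, the pair had 8.70 times the autosomal peak density at passage 0 and 19.9 times at passage 5.

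**Figure D4:**
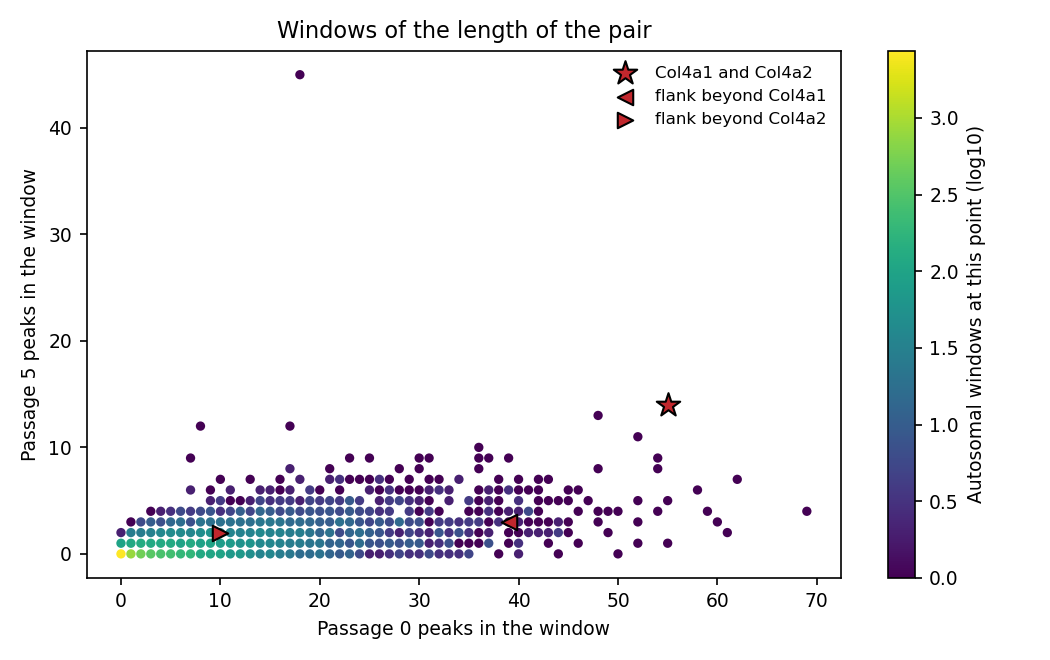
Passage 0 and passage 5 peaks in windows of 252 kb. The x and y axes are the numbers of passage 0 and passage 5 peaks in a window, each dot stands for all autosomal windows with those numbers, and the colour gives how many there are on a log10 scale. The star (55 and 14 peaks) is the pair and the triangles are its flanks (39 and 3 beyond Col4a1, 10 and 2 beyond Col4a2).

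Passage 5 peaks were fewer beyond the genes, though still above the autosomal density, while passage 0 peaks went on beyond Col4a1. The flank of 252 kb beyond Col4a1, on the side where Irs2 is the next protein-coding gene in RefSeq's gene order, held 39 passage 0 peaks (1.55 per 10 kb) and 3 passage 5 peaks. That passage 0 density was above that of Col4a1 itself, but 3 of its 39 peaks (7.69%, exact interval 1.62% to 20.9%) had a passage 5 peak. The flank beyond Col4a2, on the side of Rab20, held 10 passage 0 peaks and 2 passage 5 peaks. Of these 10 peaks 2 were retained, or 20% (exact interval 2.52% to 55.6%), the same share as in the pair. Per 10 kb the flanks beyond Col4a1 and Col4a2 held 0.119 and 0.0794 passage 5 peaks. The pair held 0.556 and the autosomes 0.028. Distances to peaks outside were measured from the edges of the whole region, bases 11198000 and 11450000. The nearest passage 5 peaks outside were 118 kb away on the Col4a1 side and 183 kb away on the Col4a2 side. At passage 0 the nearest peaks outside lay 4.34 and 2.59 kb from these edges, with scores of 128 and 110, and the first peaks inside had scores of 414 and 103.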

How the data were processed

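5hmC enrichment was sequenced in MEFs at passage 0 and passage 5, with 1 library each. Each deposited list gives a start, an end and a score per peak, and the authors' score has no stated unit. Build mm9 and the tools CASAVA 1.8, Bowtie 0.12.7 and MACS 1.4.1 are named, with no steps, per the submitters' processing notes. Alignment settings, the handling of duplicates, any input control and the threshold for peaks are not stated in these sources, and the depth per library is unknown. Starts were raised by 1 to count from 1.

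Peaks were assigned to a gene when they shared a base with its rounded borders, and to the other list's peaks when they shared at least 1 base. Overlap counts equalled those of bedtools 2.31.1, and the overlap step was tested on simulated data. Runs joined peaks with gaps up to 5 kb. Shares carry 95% exact Clopper-Pearson intervals and counts exact Poisson intervals, for counting error only. With no replicate, no test was run. Individual peaks were named by a rule: all at passage 5, the 3 highest and the widest at passage 0 per gene, those nearest the start, and the longest runs and empty stretches. Other peaks given as examples were chosen after their values were seen. The members and comparisons were chosen with earlier results of these data known. Alternatives changed the overlap, the score threshold, merging, gene assignment, the start region, the window grid and the bins. Other basement membrane genes were not analysed here, for lack of mm9 positions. Python 3.11.15, numpy 2.4.6, pandas 2.3.3, scipy 1.17.1 and matplotlib 3.10.9 were used.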

Additional observations from a re-analysis of the deposited data

How the results depend on the processing

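The 19 results were recomputed 113 times. In 102 cases the value lay inside the counting interval of the reported one (within 1.5 times for counts and ranks), in 10 it lay outside and in 1 the direction was reversed. Many settings could not move a given value by construction. With the upper 50% of each list by score, the retained share in Col4a1 was 0%, its passage 5 peaks numbered 0 and those of Col4a2 4, and the difference in retained share was -9.38 percentage points. Fewer peaks entered that setting. With scores of at least 100, Col4a1 had 2 passage 5 peaks, and the pair ranked 3 by passage 0 and 4 by passage 5 peaks among windows. With the upper 50%, a setting added after the data were seen, these ranks were 2 and 37. Ties among windows were given the best place. With peaks within 1 kb merged, Col4a2 had 1.54 passage 0 peaks per 10 kb and a median width of 1603 bp. The ratio of Col4a2 to Col4a1 in passage 0 density stayed above 1 in the 7 alternatives, from 1.47 to 2.21. The overlap settings could not change this ratio, and assignment by midpoint left it at 2.04. With peaks merged, its interval of 0.689 to 3.27 included 1. No paired analysis was possible because each passage has 1 library, and for the same reason no replicate could be left out. Unknown depth limits every comparison between the lists.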
